A study of Homo sapiens with 18 samples.

Results

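Cytokine genes of the interleukin 1, interleukin 6, interleukin 12 and tumour necrosis factor groups were followed in the human colorectal adenocarcinoma line HT29 and in its oxaliplatin-resistant subline HTOXAR3. They were *IL1A*, *IL1B*, *IL1RN*, *IL18*, *IL6*, *IL11*, *LIF*, *IL23A*, *TNF* and *IL32*. The members were all non-control spots of the arrays whose gene name is one of these symbols, which gave 10 gene names of 36204 and 14 probes of 50599. Global expression was measured on 18 one-colour Agilent arrays, 3 for each of 6 groups. HT29 was profiled untreated, with 10 µM oxaliplatin (OXA) and with 10 µM OXA plus 10 µM Curcumin. HTOXAR3, which was obtained from HT29 by keeping the cells in rising OXA doses, was profiled untreated, with 30 µM OXA and with 30 µM OXA plus 10 µM Curcumin. Drug was present for 24 h, and a comparison of the lines after treatment therefore also compares 10 with 30 µM OXA. The basal groups carry the word untreated in the sample labels. In the study they are vehicle-treated by its results and without treatment by its methods. HTOXAR3 is a single derived line and Curcumin without OXA was not analysed here, so that every value for Curcumin is that of adding it to OXA. The labels name the 3 arrays of a group biological replicates.

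Interleukin 1α (*IL1A*) and interleukin 1β (*IL1B*) activate the interleukin 1 receptor, and the product of *IL1RN* occupies the same receptor without activating it. Interleukin 18 belongs to the same family, is made by intestinal epithelium as an inactive precursor and is released after cleavage by inflammatory caspases. Interleukin 6, interleukin 11 and leukaemia inhibitory factor (*LIF*) each bind a receptor chain of their own and signal through the shared chain gp130, encoded by *IL6ST*, to JAK kinases and STAT3. *IL23A* encodes the p19 chain of interleukin 23, which acts only when joined to the p40 chain encoded by *IL12B*. *TNF* encodes tumour necrosis factor, a trimer that activates NF-κB through its receptors, and many of these genes are themselves known NF-κB targets. *IL32* encodes a cytokine made in several splice forms.

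The share of non-control spots flagged as well above background ran from 52.4% (untreated HTOXAR3 replicate 2) to 63.6%, and no pair of arrays correlated above 0.995. All arrays came from 3 slides, one of which held only the first untreated and the first OXA array of HT29. Of the 10 colon epithelial markers examined, 9 were well above background on all 18 arrays and the tenth, *CDX2*, on 10. Without drug *LGALS4* and *VIL1* were lower in HTOXAR3, by log2 differences of -2.08 and -1.61. Among leukocyte markers 6 of 8 were well above background on all arrays, *CD14* and *CD79A* among them, and *NCAM1* on 0. The summed log2 level of the epithelial list ran in HT29 from 19.49 to 19.55 untreated, from 19.62 to 19.68 after OXA and from 19.66 to 19.75 after OXA plus Curcumin, and in HTOXAR3 from 19.54 to 19.58, from 19.54 to 19.56 and at 19.74. That of the leukocyte list ran from 12.25 to 12.45 in untreated HT29, from 11.72 to 11.98 after OXA and from 12.09 to 12.28 after OXA plus Curcumin, and in HTOXAR3 from 12.46 to 12.54, from 12.17 to 12.26 and from 12.22 to 12.26. For the 6 markers of fibroblasts and endothelium, of which 2 were well above background on all arrays and *COL1A2* on 0, the summed level ran in HT29 from 8.21 to 8.46 untreated, from 8.52 to 8.62 after OXA and from 8.40 to 8.58 after OXA plus Curcumin, and in HTOXAR3 from 8.20 to 8.44, from 8.57 to 8.66 and from 8.31 to 8.45. The sums follow the brightest markers of a list. With OXA, 1 leukocyte marker was called higher and 1 lower in HT29 (25%, against 15.9% of all names, list median -0.02). In HTOXAR3 2 were higher and 1 lower (37.5%, against 10.2%, median 0.04). Of the fibroblast and endothelium markers 1 was called higher in HT29 (16.7%, median 0.17) and 0 in HTOXAR3 (0.36). Without drug 2 leukocyte markers were higher in HTOXAR3 and 0 lower (25%, against 11.5%). With the combination 2 were higher and 0 lower in HT29 (25%, against 18.6%), and 2 higher and 1 lower in HTOXAR3 (37.5%, against 17.5%). Epithelial markers called with the combination were 3 higher and 0 lower in HT29 (30%) and 3 higher and 1 lower in HTOXAR3 (40%). Their part in the results below was not tested. In RNA from whole cultures, fewer cells expressing a gene and less RNA per cell cannot be told apart.

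The promoter stretches of 3 members are shown because these genes gave the largest basal difference (*IL1B*), the largest rise with OXA over both lines among the probes that stand for a gene (*IL23A*) and the disagreement between probes (*IL32*). Each is the 250 bases before a transcription start in RefSeq's GRCh38.p14 annotation, read 5′ to 3′ on the strand of the gene. Capitals mark matches, on either strand, to the NF-κB consensus, the AP-1 motif TGANTCA, the cyclic AMP response element TGACGTCA and the STAT motif TTCNNNGAA, and none of the matches overlapped.
IL1B (chr2:112836780-112837029, minus strand): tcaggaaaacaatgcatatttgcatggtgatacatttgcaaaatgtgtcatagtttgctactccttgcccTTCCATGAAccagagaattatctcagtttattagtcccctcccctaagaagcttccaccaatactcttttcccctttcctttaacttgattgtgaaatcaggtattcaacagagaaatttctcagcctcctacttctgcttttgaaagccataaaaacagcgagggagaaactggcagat
IL23A (chr12:56338634-56338883, plus strand): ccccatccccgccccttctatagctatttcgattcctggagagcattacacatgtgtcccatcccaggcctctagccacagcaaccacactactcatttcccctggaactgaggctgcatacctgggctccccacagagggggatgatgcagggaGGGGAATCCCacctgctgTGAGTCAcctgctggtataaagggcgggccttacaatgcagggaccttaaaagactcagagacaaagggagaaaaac
IL32 (chr16:3065153-3065402, plus strand): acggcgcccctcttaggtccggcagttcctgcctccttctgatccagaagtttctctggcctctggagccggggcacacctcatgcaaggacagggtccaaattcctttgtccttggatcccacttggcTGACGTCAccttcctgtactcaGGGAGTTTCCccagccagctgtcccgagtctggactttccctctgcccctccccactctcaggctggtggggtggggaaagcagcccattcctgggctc
In *IL23A* the NF-κB match GGGGAATCCC lies 95 to 86 bases before the start and the AP-1 match TGAGTCA 77 to 71 bases before it. In *IL32* the NF-κB match GGGAGTTTCC lies 99 to 90 bases and the cyclic AMP response element 121 to 114 bases before the start, while a second *IL32* window (chr16:3065534-3065783) held no match, and in *IL1B* the STAT match TTCCATGAA lies 180 to 172 bases before it. Windows were found for 8 of the 10 members, 12 in all, and *IL18* and *LIF* had none. Counting a member where at least 1 of its windows matched, an NF-κB match was present for 3 of these 8 (*IL6*, *IL23A* and *IL32*), an AP-1 match for 4 (*IL1A*, *IL1RN*, *IL11* and *IL23A*), the cyclic AMP element for 1 and the STAT motif for 1. Of all 35116 windows of this length, 6.88% held the NF-κB consensus, 6.57% the AP-1 motif, 1.65% the cyclic AMP element and 6.57% the STAT motif. A match is a description of these letters and no evidence of binding.

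The *IL32* probes are shown because their readings went apart under treatment. On GRCh37, A_33_P3346826 lies at chr16:3119014-3119073 and A_23_P15146 at chr16:3119308-3119367, and the array annotates them to different transcripts of *IL32*.
A_33_P3346826: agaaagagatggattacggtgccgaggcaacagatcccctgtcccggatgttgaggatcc
A_23_P15146: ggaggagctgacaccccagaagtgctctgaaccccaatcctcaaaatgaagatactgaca

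Levels are given as normalized intensity on the log2 scale, on which 1 unit is a doubling, and differences as log2 differences with their standard errors. A gene was called when its adjusted p, from limma over all 36204 names with Benjamini and Yekutieli's correction, was below 0.05 and its fold change above 1.2. Where a gene has 2 probes, the brighter one over all arrays stands for it.

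Without drug, HTOXAR3 carried higher levels of *IL1B*, *IL1RN*, *IL11*, *TNF* and *IL23A* than HT29, with log2 differences from 0.51 (*IL23A*) to 2.74 (*IL1B*). The *IL1RN* difference was called on 1 of 2 probes. Those of *IL11*, *TNF* and *IL23A* were not called when only the arrays of these groups were fitted. The calls of *IL11* and *IL23A* were also lost without certain single arrays. OXA raised *IL23A*, *LIF* and *TNF* and lowered *IL18* in both lines, and it raised *IL1RN* in HT29. Adding Curcumin to OXA raised *IL18* in both lines and *IL1RN* in HTOXAR3 and lowered *IL23A* in HT29, and its rise of *IL1RN* in HT29 was called on 1 of 2 probes. In counts, 6 of the 10 members were called between the untreated lines, all 6 higher in HTOXAR3, where 11.5% of all names were called, 6.26% higher and 5.28% lower. The member median was 0.45, against -0.03 over all names. With OXA, 5 members were called in HT29, 4 higher and 1 lower, against a background of 15.9% of all names (8.33% higher and 7.62% lower). In HTOXAR3, 4 members were called, 3 higher and 1 lower, against 10.2% (5.31% higher and 4.94% lower). OXA plus Curcumin against untreated called 6 members in each line, all higher, where 18.6% of names were called in HT29 (9.56% higher and 9.02% lower) and 17.5% in HTOXAR3 (8.82% higher and 8.64% lower). Adding Curcumin to OXA called 4 members in HT29, 3 higher and 1 lower, against 5.53% (3.14% higher and 2.39% lower), and 3 in HTOXAR3, all higher, against 8.83% (4.43% higher and 4.41% lower). Member medians were 0.43 with OXA in HT29 and 0.39 in HTOXAR3, 0.53 with the combination in either line, and 0.11 and 0.08 for adding Curcumin, where the medians over all names lay between -0.03 and 0.01. *IL1A*, which was not well above background on any array, is among the members called in every one of these comparisons except those of OXA with untreated cells, and without it the counts were 5 between the lines, 5 in each line for the combination, and 3 and 2 for adding Curcumin.

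The comparisons within a line share arrays, since the untreated group serves both OXA and the combination. The OXA group likewise serves the comparison with untreated cells and that of adding Curcumin. An error in its mean therefore moves these differences in opposite directions, which bears on *IL18* in both lines and on *IL23A* in HT29. Fitted on the arrays of the compared groups alone, the counts fell to 2 between the lines and 2 with OXA in either line. They fell to 0 for adding Curcumin in HT29 and 2 for the combination in HTOXAR3. The differences cannot change in this fit, since the group means stay the same, so that their size says nothing on stability. Leaving out 1 array moved the count by more than 1.5 times without untreated HT29 replicate 1 between the lines (3 called), without untreated HT29 replicate 2 or 3 or HT29 OXA replicate 2 or 3 for OXA in HT29 (3 called each), and without HT29 combination replicate 3 for adding Curcumin in HT29 (2 called).

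**Figure D1:**
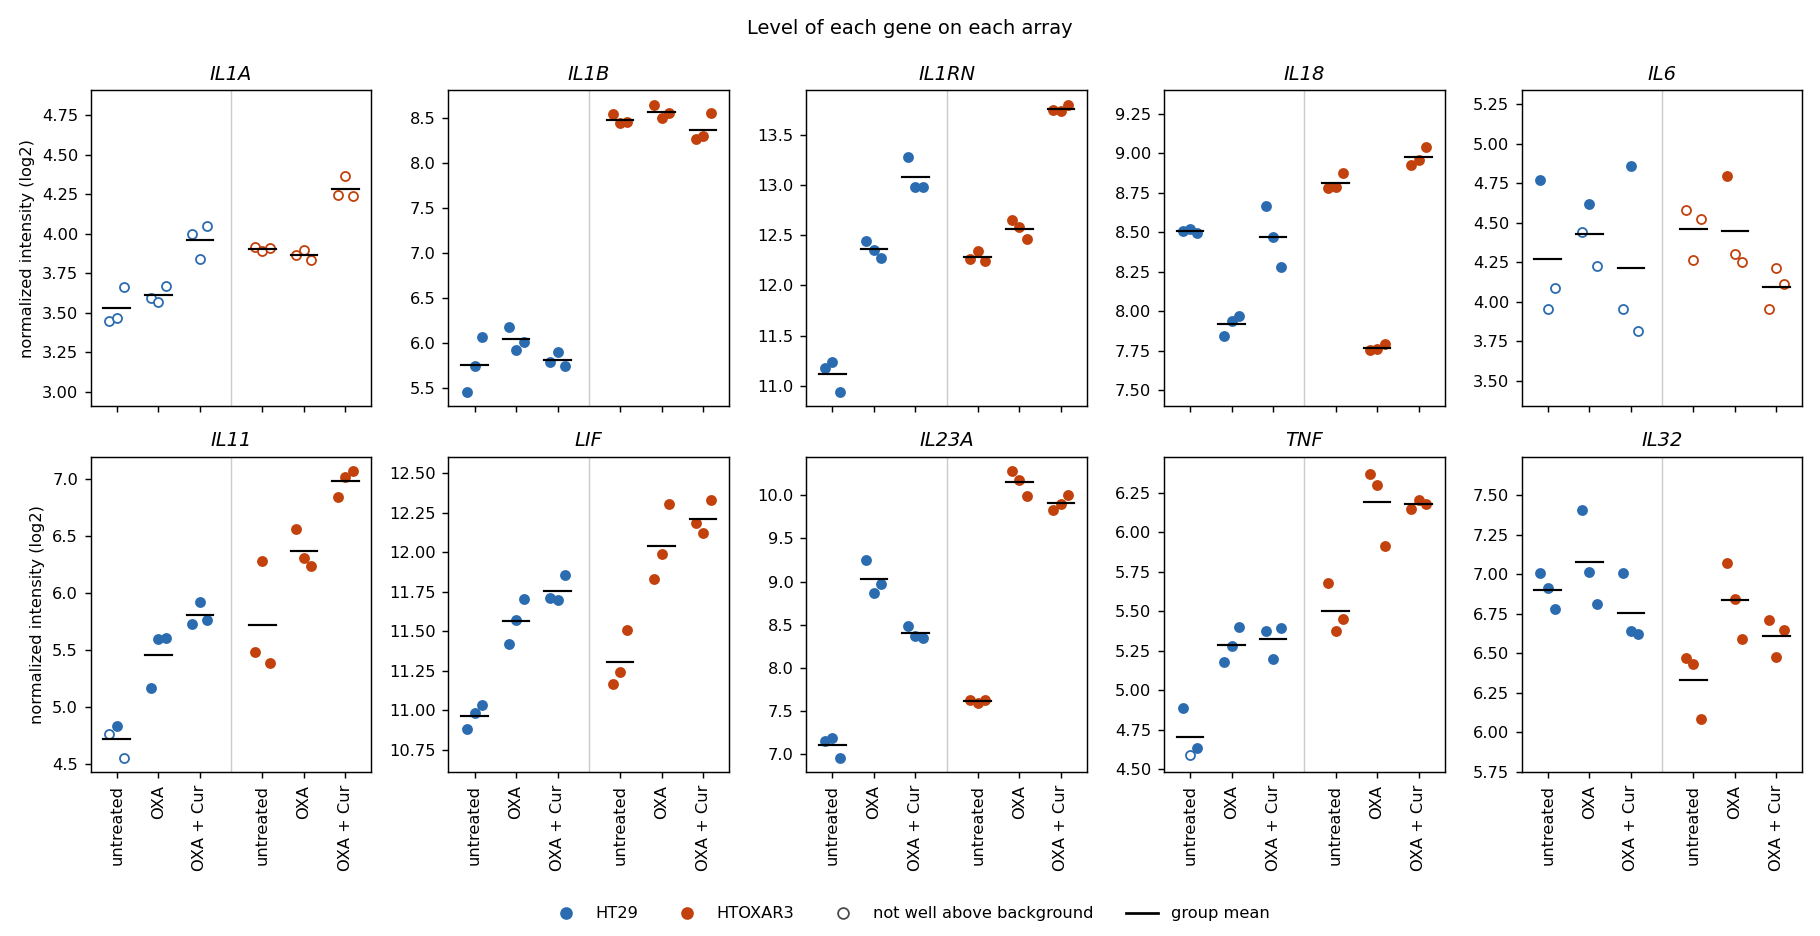
Normalized intensity (log2, vertical axis, a separate scale in each panel) of the 10 genes on each of the 18 arrays, by group (horizontal axis; Cur, Curcumin). Each point is 1 array, open where the probe was not well above background, and the bar is the mean of 3 arrays; *IL1A* is open throughout, *IL1B* separates the lines by 2.74 and *IL18* lies lowest after OXA in both lines.

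**Figure D2:**
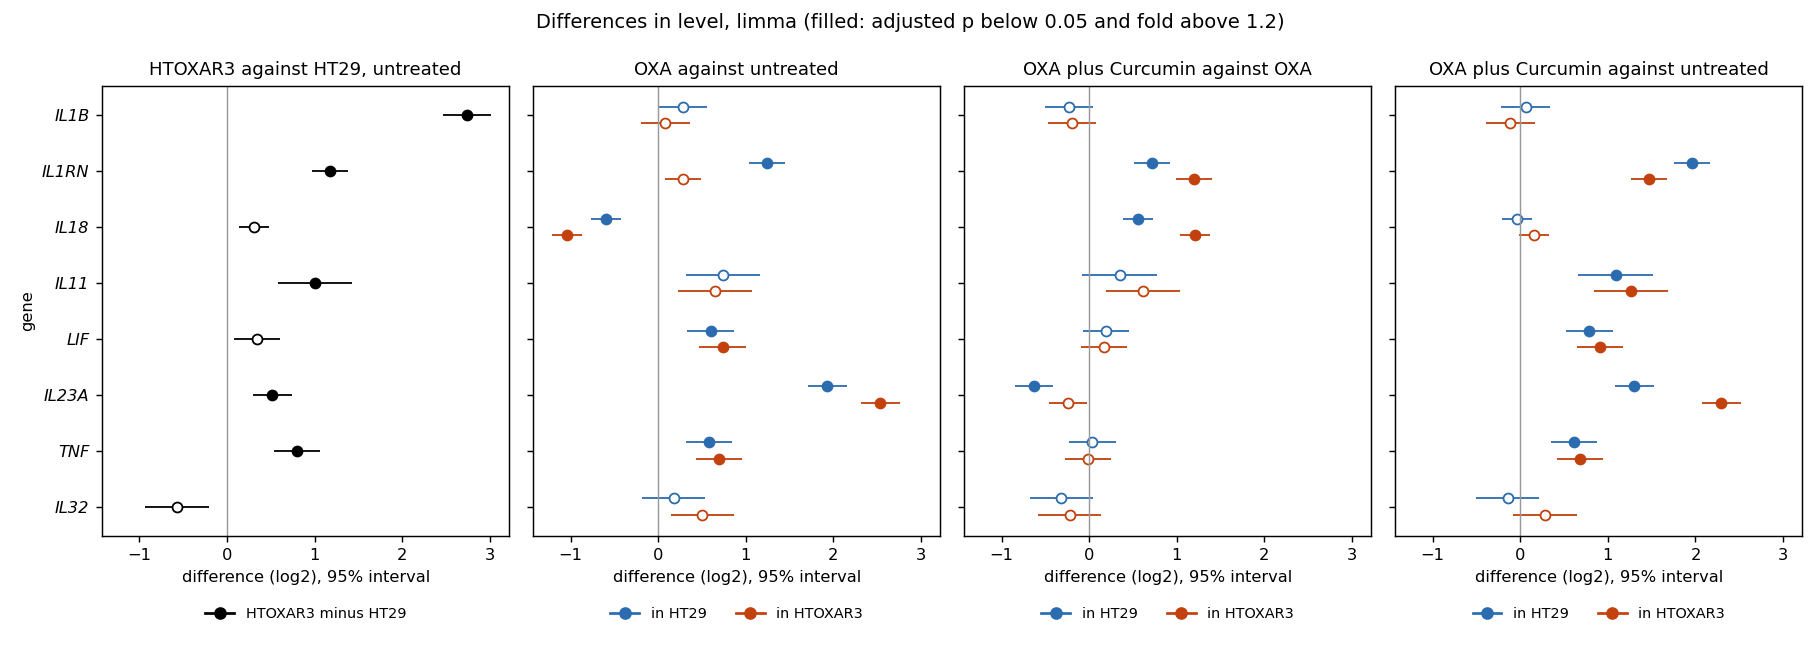
Log2 difference (horizontal axis) with its 95% interval for the 8 genes measured well above background on most arrays, in 4 kinds of comparison. Filled points passed the threshold; *IL23A* lies farthest to the right for OXA, at 1.93 in HT29 and 2.54 in HTOXAR3, and *IL18* lies left of 0 with OXA and right of it when Curcumin is added, in both lines.

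Within the interleukin 1 family, *IL1B* gave the largest basal difference of all members and no called response to drug. Its probe lies at chr2:113587429-113587488 on GRCh37, the build of all probe positions. Its level in untreated HT29 was 5.46, 5.74 and 6.06 in replicates 1 to 3, and in untreated HTOXAR3 8.55, 8.45 and 8.46. The groups did not overlap, and the difference of 2.74 ± 0.13 was a 6.66-fold higher level in the resistant line (adjusted p = 2.12e-08), at 2.76 and 2.40 within the 2 slides that held both groups. After OXA the arrays read 6.18, 5.93 and 6.01 in HT29 and 8.65, 8.50 and 8.56 in HTOXAR3, and after OXA plus Curcumin 5.79, 5.90 and 5.74 and 8.27, 8.30 and 8.56. These ranges overlapped those of the untreated arrays of the same line. None of the treatment differences was called, and they lay between -0.23 (95% interval -0.50 to 0.05, adding Curcumin in HT29) and 0.29 (0.01 to 0.56, OXA in HT29).

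By the probe that stands for it, *IL1RN*, the receptor antagonist, was higher in HTOXAR3 and rose with treatment in both lines. It read 11.17, 11.23 and 10.94 in untreated HT29, 12.45, 12.36 and 12.27 after OXA and 13.28, 12.98 and 12.98 after OXA plus Curcumin. HTOXAR3 read 12.27, 12.35 and 12.25 untreated, 12.65, 12.59 and 12.47 after OXA and 13.75, 13.73 and 13.80 after OXA plus Curcumin. The 3 groups of each line did not overlap, and untreated HTOXAR3 overlapped with OXA-treated HT29. The basal difference was 1.17 ± 0.09 (adjusted p = 6e-06) and was 1.07 and 1.31 within slides. OXA raised the gene 2.37-fold in HT29, by 1.24 ± 0.09 (adjusted p = 2.94e-06), while in HTOXAR3 the difference of 0.28 ± 0.09 was not called (adjusted p = 0.613). Adding Curcumin raised it further in HTOXAR3, by 1.19 ± 0.09 (adjusted p = 1.86e-05). In HT29 this probe gave 0.72 ± 0.09 (adjusted p = 0.00208), the second probe of the gene 0.14 ± 0.11 (adjusted p = 1) and the mean of both probes 0.43 (adjusted p = 0.0561). Against untreated cells the combination gave a 3.90-fold rise in HT29 and a 2.78-fold rise in HTOXAR3.

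The response of *IL1RN* to OXA differed between the lines. The response in HTOXAR3 minus that in HT29 was -0.96 ± 0.13 (adjusted p = 0.0104), and it was the only member called for this difference, where 1.01% of all names were called and 0.398% were called lower. It stayed called without any 1 of the 12 arrays concerned, at values between -1.02 and -0.87, and was -0.78 and -1.05 within slides. On the compared arrays alone it was not called (adjusted p = 0.0511), nor was the *IL1RN* rise with Curcumin in HT29 (0.538). A second, dimmer probe of the gene, A_33_P3246829, was called neither for this difference (-0.26 ± 0.15, adjusted p = 1) nor for the basal one (0.25 ± 0.11, adjusted p = 1) nor for adding Curcumin in HT29. The second probe rose with OXA in HT29 by 0.55 ± 0.11 (adjusted p = 0.0152), with Curcumin added in HTOXAR3 by 0.67, and with the combination by 0.69 in HT29 and 0.97 in HTOXAR3, all called. It lies at chr2:113890639-113890698 and the main probe at chr2:113891531-113891590.

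*IL18* fell with OXA and was higher again when Curcumin was added, in both lines (probe at chr11:112020811-112020870). In HT29 it read 8.51, 8.52 and 8.49 untreated, 7.84, 7.94 and 7.97 after OXA and 8.66, 8.47 and 8.28 after OXA plus Curcumin. HTOXAR3 read 8.78, 8.79 and 8.88 untreated, 7.76, 7.76 and 7.79 after OXA and 8.92, 8.96 and 9.04 after OXA plus Curcumin. The OXA arrays lay below all others in both lines. The fall was -0.59 ± 0.08 in HT29 (adjusted p = 0.000629) and -1.04 ± 0.08 in HTOXAR3, a 2.06-fold lower level (adjusted p = 8.53e-06). Adding Curcumin to OXA raised *IL18* by 0.55 ± 0.08, or 1.47-fold, in HT29 (adjusted p = 0.00418) and 2.30-fold in HTOXAR3 (adjusted p = 3.7e-06). All 4 of these calls held without any 1 array, and on the compared arrays alone those in HT29 were lost (adjusted p = 0.0636 for OXA and 0.915 for adding Curcumin). Within the slides that held both groups the falls lay between -0.53 and -0.66 in HT29 and at -1.03 and -1.10 in HTOXAR3, and the rises at 0.63 and 0.31 in HT29 and 1.17 and 1.22 in HTOXAR3. The combination against untreated gave -0.04 (95% interval -0.21 to 0.13) in HT29 and 0.16 (-0.01 to 0.33) in HTOXAR3, neither called, and the basal difference of 0.31 ± 0.08 was not called either (adjusted p = 0.144).

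The larger size of both *IL18* changes in HTOXAR3 did not pass the threshold. The response to OXA in HTOXAR3 minus that in HT29 was -0.45 ± 0.11 (adjusted p = 0.506) and the effect of adding Curcumin 0.65 ± 0.11 (adjusted p = 0.175). For adding Curcumin 0 members were called by limma, against 0.135% of all names, 3 members had an unadjusted p below 0.05, and 1 member, *IL18*, was called with the Benjamini and Hochberg correction (adjusted p = 0.0158). Without HT29 combination replicate 1, the highest of its group, *IL18* was called at 0.75 (adjusted p = 0.0266).

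*IL1A* was not well above background on any of the 18 arrays (probe at chr2:113532362-113532421). Its readings lay between 3.45 and 4.37 and are not taken as a level, and no fold is given. Its differences are nonetheless part of the member counts and medians above.

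Of the members that signal through gp130, *LIF* and *IL11* rose with treatment and *IL6* stayed at the limit of detection. The probe of *LIF* lies at chr22:30636713-30636772. *LIF* read 10.88, 10.98 and 11.04 in untreated HT29, 11.42, 11.57 and 11.70 after OXA and 11.71, 11.69 and 11.86 after OXA plus Curcumin. The HTOXAR3 arrays read 11.16, 11.24 and 11.51 untreated, 11.83, 11.99 and 12.31 after OXA and 12.18, 12.12 and 12.33 after OXA plus Curcumin. In each line the untreated arrays lay below all treated ones, and the OXA and combination arrays overlapped. OXA raised *LIF* by 0.60 ± 0.12 in HT29 (adjusted p = 0.0217) and by 0.74 ± 0.12 in HTOXAR3 (adjusted p = 0.00695). The combination raised it by 0.79 ± 0.12 (adjusted p = 0.00196) and 0.91 ± 0.12 (adjusted p = 0.000603). Adding Curcumin changed it by 0.19 (95% interval -0.08 to 0.45) in HT29 and 0.17 (-0.09 to 0.44) in HTOXAR3, neither called, and the basal difference of 0.34 ± 0.12 was not called (adjusted p = 0.819).

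The *LIF* call for OXA in HT29 was lost without any 1 of 5 arrays, untreated replicate 1 (0.56, adjusted p = 0.121), 2 (0.61, 0.0799) or 3 (0.63, 0.0522) and OXA replicate 2 (0.60, 0.0904) or 3 (0.53, 0.131). The other 3 *LIF* calls held without any 1 array. On the compared arrays alone the *LIF* calls were lost for OXA in HT29 (adjusted p = 0.172) and in HTOXAR3 (0.43) and for the combination in HTOXAR3 (0.0548). A second, dimmer probe, A_24_P233488 at chr22:30639661-30639720, gave 0.71 ± 0.17 for OXA in HT29 (adjusted p = 0.0797), 0.92 in HTOXAR3 and, for the combination, 0.80 and 0.93, the last 3 called.

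*IL11* rose with the combination in both lines (probe at chr19:55875788-55875847). It read 4.76, 4.83 and 4.55 in untreated HT29, where only replicate 2 was well above background, and 5.17, 5.59 and 5.60 after OXA and 5.73, 5.92 and 5.76 after OXA plus Curcumin. HTOXAR3 read 5.48, 6.28 and 5.38 untreated, 6.56, 6.30 and 6.23 after OXA and 6.84, 7.02 and 7.07 after OXA plus Curcumin. The 3 groups of HT29 did not overlap, while untreated HTOXAR3 replicate 2 lay among the OXA arrays of that line. The combination raised *IL11* by 1.09 ± 0.20 in HT29 (adjusted p = 0.00693) and by 1.26 ± 0.20 in HTOXAR3 (adjusted p = 0.00215), and both calls held without any 1 array. On the compared arrays alone the call in HTOXAR3 was lost (adjusted p = 0.244). The differences with OXA, 0.74 ± 0.20 in HT29 (adjusted p = 0.13) and 0.65 ± 0.20 in HTOXAR3 (adjusted p = 0.361), were not called. Without untreated HTOXAR3 replicate 2 the latter was called at 0.93 (adjusted p = 0.00686). The basal difference of 1.00 ± 0.20 (adjusted p = 0.0206) was lost without untreated HT29 replicate 1 (1.03, adjusted p = 0.0723), 2 (1.06, 0.0538) or 3 (0.92, 0.118) with the slide as a block (0.92, 0.0809) and on the compared arrays alone (adjusted p = 0.769).

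The brighter *IL6* probe, at chr7:22771207-22771266, was well above background on 4 of 18 arrays, 1 each of untreated HT29 (4.77), HT29 after OXA (4.62), HT29 after OXA plus Curcumin (4.86) and HTOXAR3 after OXA (4.79). Its second probe was not well above background on any array, and no difference was called.

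*IL23A* gave the largest response to OXA of the 10 genes in both lines, by the probe that stands for each. Its probe lies at chr12:56734083-56734142. In HT29 it read 7.16, 7.19 and 6.95 untreated, 9.25, 8.87 and 8.97 after OXA and 8.48, 8.37 and 8.35 after OXA plus Curcumin. For HTOXAR3 the readings were 7.62, 7.60 and 7.62 untreated, 10.28, 10.17 and 9.99 after OXA and 9.83, 9.89 and 10.01 after OXA plus Curcumin. The 3 groups of HT29 did not overlap, and in HTOXAR3 the treated groups overlapped with each other and lay above the untreated one. OXA raised *IL23A* 3.82-fold in HT29, by 1.93 ± 0.10 (adjusted p = 8.66e-08), and 5.80-fold in HTOXAR3, by 2.54 ± 0.10 (adjusted p = 5.82e-08). Within slides the rises were 1.68 to 2.10 in HT29 and 2.67 and 2.46 in HTOXAR3. Adding Curcumin lowered it in HT29 by -0.63 ± 0.10 (adjusted p = 0.0102), a call lost without HT29 combination replicate 2 (-0.62, adjusted p = 0.0565) or 3 (-0.60, 0.0536). In HTOXAR3 the difference was -0.24 (95% interval -0.46 to -0.02, adjusted p = 1), and the difference between these 2 effects was 0.39 ± 0.15 (adjusted p = 1).

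With the combination, *IL23A* stood 2.46-fold above untreated in HT29 (adjusted p = 3.25e-06) and 4.91-fold in HTOXAR3 (2.29 ± 0.10, adjusted p = 2.91e-08). The response in HTOXAR3 minus that in HT29 was 0.99 ± 0.15 (adjusted p = 0.0198), the only member called for this difference, where 0.856% of all names were called and 0.32% were called higher, and it was 0.98 and 0.94 within slides. The size stayed between 0.95 and 1.07 without any 1 of the 12 arrays, but the call was lost without any of 9 of them, the untreated arrays other than HT29 replicate 3 and the combination replicates 2 and 3 of both lines, with adjusted p between 0.0602 and 0.0791. For OXA alone the corresponding difference of 0.60 ± 0.15 was not called (adjusted p = 0.428). Without drug *IL23A* was higher in HTOXAR3 by 0.51 ± 0.10 (adjusted p = 0.0228), lost without untreated HT29 replicate 1 (0.54, adjusted p = 0.0615) or 3 (0.44, 0.136) or untreated HTOXAR3 replicate 1 (0.51, 0.0998), 2 (0.52, 0.0833) or 3 (0.51, 0.0981). On the compared arrays alone this call (adjusted p = 0.193) and that for adding Curcumin in HT29 (0.758) were lost. *IL12B*, which encodes the partner chain, and *IL23R*, the receptor chain, were not well above background on any array.

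*TNF* was higher in HTOXAR3 and rose with OXA in both lines, with no further called change when Curcumin was added. Its probe lies at chr6:31545837-31545896. It read 4.89, 4.59 and 4.64 in untreated HT29, where replicate 2 was not well above background, 5.18, 5.28 and 5.40 after OXA and 5.38, 5.20 and 5.39 after OXA plus Curcumin. HTOXAR3 arrays read 5.68, 5.37 and 5.45 untreated, 6.37, 6.30 and 5.91 after OXA and 6.15, 6.20 and 6.18 after OXA plus Curcumin. The untreated arrays lay below the treated ones in each line. The basal difference was 0.80 ± 0.12 (adjusted p = 0.00277) and was 0.94 and 0.81 within slides. The call held without any 1 array and was lost on the compared arrays alone (adjusted p = 0.164). OXA raised *TNF* by 0.58 ± 0.12 in HT29 (adjusted p = 0.0265) and 0.69 ± 0.12 in HTOXAR3 (adjusted p = 0.0109), with 0.29, 0.69 and 0.76 within the slides for HT29, and the combination by 0.62 ± 0.12 (adjusted p = 0.0143) and 0.68 ± 0.12 (adjusted p = 0.00732). Adding Curcumin gave 0.04 (95% interval -0.23 to 0.30) and -0.01 (-0.28 to 0.25).

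The *TNF* calls for treatment in HT29 and for OXA in HTOXAR3 lay near the threshold. The OXA call in HT29 was lost without untreated replicate 2 (0.52, adjusted p = 0.156) or 3 (0.55, 0.129) or OXA replicate 2 (0.58, 0.0994) or 3 (0.52, 0.15) and with the slide as a block (0.58, 0.0553). The combination call in HT29 was lost without untreated replicate 2 (0.56, 0.0893) or 3 (0.58, 0.076) or combination replicate 1 (0.59, 0.0745) or 3 (0.58, 0.077). The OXA call in HTOXAR3 was lost without untreated replicate 2 (0.63, 0.0716) or 3 (0.67, 0.0609) or OXA replicate 1 (0.60, 0.0707) or 2 (0.64, 0.0726). On the compared arrays alone all 4 treatment calls of *TNF* were lost, with adjusted p of 0.277 and 0.47 for OXA and 0.173 and 0.0729 for the combination, in HT29 and HTOXAR3.

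For *IL32* the result depended on the probe. The brighter probe, A_33_P3346826, stands for the gene and was not called in any comparison of the model used, though with the slide as a block it was called for OXA in HTOXAR3 (0.59, adjusted p = 0.031). It read 7.01, 6.91 and 6.78 in untreated HT29, 7.41, 7.01 and 6.81 after OXA and 7.01, 6.64 and 6.62 after OXA plus Curcumin, and in HTOXAR3 6.47, 6.43 and 6.09, 7.07, 6.84 and 6.59, and 6.71, 6.48 and 6.65. The HT29 groups overlapped throughout. The other probe, A_23_P15146, read 4.84, 5.02 and 5.32 in untreated HT29 (replicate 1 not well above background), 7.35, 7.19 and 7.30 after OXA and 6.61, 6.52 and 6.48 after OXA plus Curcumin. In the resistant line it read 5.59, 5.55 and 5.97, then 7.10, 7.18 and 7.02 after OXA and 6.67, 6.90 and 7.01 after OXA plus Curcumin. Its groups did not overlap within either line. With OXA this probe rose 4.67-fold in HT29 (2.22 ± 0.13, adjusted p = 2.93e-07) and 2.63-fold in HTOXAR3 (1.40 ± 0.13, adjusted p = 6.78e-05), against 0.18 ± 0.17 and 0.51 ± 0.17 on the brighter probe. Adding Curcumin lowered it in HT29 by -0.74 ± 0.13 (adjusted p = 0.0233), and the combination raised it by 1.48 in HT29 and 1.16 in HTOXAR3.

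Without drug the *IL32* probes pointed in opposite directions. A_23_P15146 was higher in HTOXAR3 by 0.65 ± 0.13 (adjusted p = 0.0319) and A_33_P3346826 gave -0.57 ± 0.17 (adjusted p = 0.293), so that no direction is given for the gene.

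**Figure D3:**
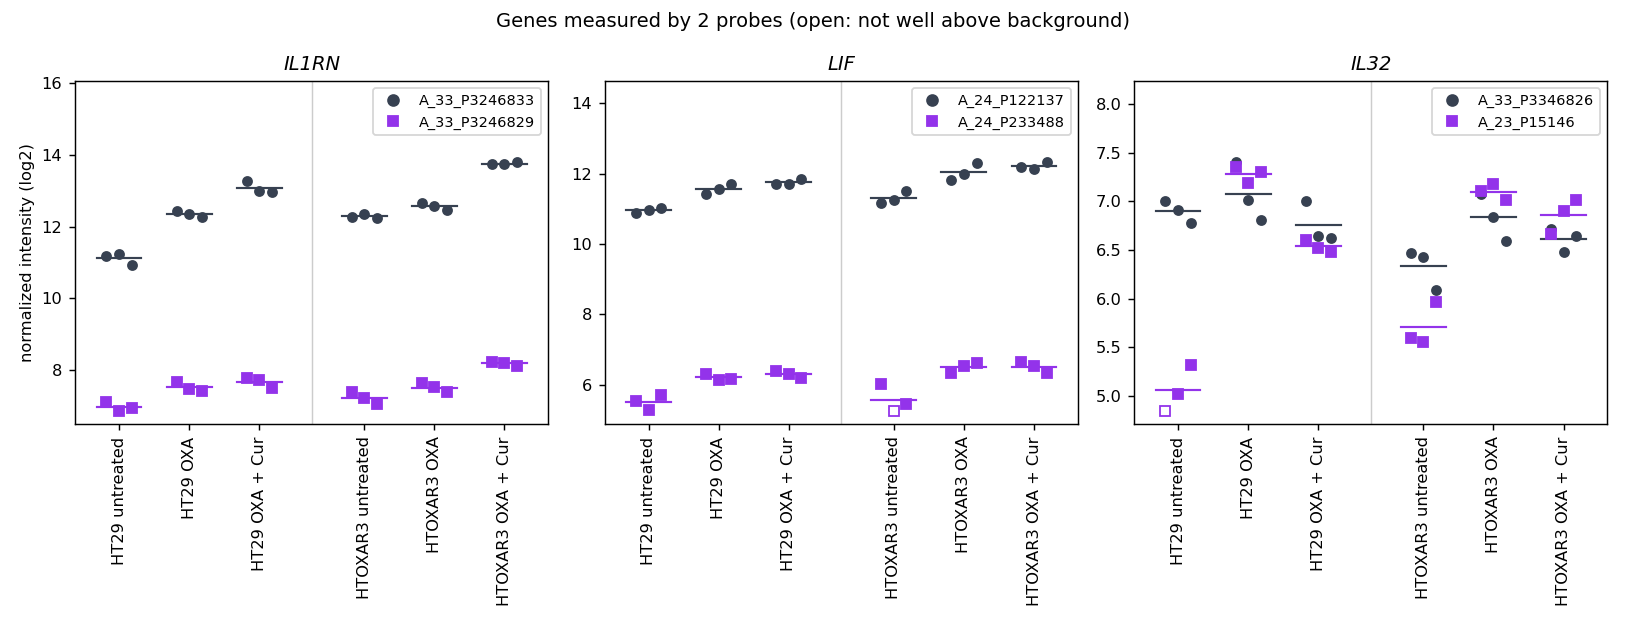
Normalized intensity (log2, vertical axis) of the 3 genes with 2 probes in range, by group (horizontal axis; Cur, Curcumin). Circles are the probe that stands for the gene and squares the other probe, each point is 1 array and bars are means of 3; the *IL32* squares lie near 5 in untreated HT29 and near 7.3 after OXA while the HT29 circles overlap.

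Around these cytokines 5 lists of receptor chains, processing enzymes, related ligands, transducers and targets were examined, which hold 78 genes on the arrays. Between the untreated lines 9 were higher in HTOXAR3 and 14 lower, that is 29.5% called. OXA raised 18 and lowered 4 in HT29 (28.2%) and raised 16 and lowered 1 in HTOXAR3 (21.8%). Adding Curcumin raised 5 and lowered 2 in HT29 and raised 9 and lowered 4 in HTOXAR3, and the combination against untreated raised 23 and lowered 4 in HT29 and raised 26 and lowered 5 in HTOXAR3. The backgrounds over all names are those given above. They include names not well above background, and no share among detected names was computed for members or lists. The median over the 78 genes was -0.03 between the lines, 0.10 with OXA in HT29 and 0.19 in HTOXAR3, 0.05 and -0.01 for adding Curcumin, and 0.19 and 0.20 with the combination. Differences in response to OXA between the lines were called for 1 gene (1.28%, against 1.01% of all names), *TNFAIP2*, a tumour necrosis factor target, whose response was lower in HTOXAR3 by a log2 difference of -0.72 ± 0.10 (adjusted p = 0.00916), and for 0 genes with the other drug comparisons.

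Among the 13 receptor chains, 3 were called between the untreated lines (23.1%, against 11.5% of all names), at a list median of -0.02. *IL11RA*, the interleukin 11 receptor, was higher in HTOXAR3 (0.69), and *IL1R2*, a decoy receptor of interleukin 1, and *IL1RAP*, the accessory chain of its receptor, were lower (-0.69 and -0.74). With OXA, *IL6ST* rose in both lines, by 0.63 in HT29 and 0.78 in HTOXAR3, and *IL11RA* by 0.99 in HT29. *IL6R*, the interleukin 6 receptor, was not well above background in either line after OXA and was well above it on all arrays after Curcumin was added, at least 3.11-fold higher in HT29 (adjusted p = 0.0104) and from a mean of 3.74 to 6.21 in HTOXAR3 (adjusted p = 0.00269). No bound is given in HTOXAR3, since the dimmest probe called well above background lay as low as -2.21 on 1 of the OXA arrays. *IL1R1*, the signalling receptor for interleukin 1, rose by 1.04 when Curcumin was added in HTOXAR3, and *IL11RA* fell by 0.61. *IL18R1*, the interleukin 18 receptor, fell by 0.55 with OXA in HT29, and by 0.69 and 0.74 with the combination in HT29 and HTOXAR3. *LIFR* was not well above background on any array, and *TNFRSF1A* was not called in any comparison.

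Of the 12 processing enzymes and binding proteins, 5 were called lower in untreated HTOXAR3 and 0 higher (41.7%, where 5.28% of all names were called lower). They were *CASP4* (-0.76) and *CASP5* (-0.78), inflammatory caspases, *GSDMD* (-0.61), the pore protein they cleave, *CAPN1* (-0.43), a calpain, and *SIGIRR* (-0.54), an inhibitory receptor of the interleukin 1 family. Adding Curcumin raised *CASP4* by 0.55 in HT29 and 0.72 in HTOXAR3 and *CASP5* by 0.52 and 0.75, and in HTOXAR3 it also raised *ADAM17* by 0.42 and lowered *GSDMD* by -0.75 and *NLRP3* by -0.60. With OXA 1 of the 12 was called in HT29, *CASP4* (-0.29), and 0 in HTOXAR3, shares of 8.33% and 0% below the backgrounds of 15.9% and 10.2%. The list median between the lines was -0.29. *CASP1* was at no time well above background.

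Of 19 other ligands of these families, 4 rose and 0 fell with OXA in each line, at list medians of 0.22 and 0.23. That is 21.1% called, against 15.9% of all names in HT29 and 10.2% in HTOXAR3. *LTB*, which encodes lymphotoxin β, rose by 2.95 ± 0.21 in HT29 and 2.70 ± 0.21 in HTOXAR3 and fell by 1.08 when Curcumin was added in HT29. It was well above background on 1 of 3 untreated arrays in each line, so that the sizes of its rises rest on readings mostly at background. *TNFSF15* rose by 1.61 and 1.27, and *CLCF1*, a gp130 ligand, by 0.85 and 1.03. Between the untreated lines 3 were called (15.8%, against 11.5% of all names). *TNFSF10*, the ligand TRAIL, and *CLCF1* were lower in HTOXAR3 (-1.02 and -0.61), and *IL36RN*, a receptor antagonist, was higher, from a mean of 3.83 that was not well above background in HT29 to 4.95, with 2 of 3 arrays well above it.

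Of the 17 signal transducers and feedback genes, 5 rose with OXA in HT29 and 7 in HTOXAR3, and 0 fell, at list medians of 0.22 and 0.29. That is 29.4% called in HT29, against 15.9% of all names, and 41.2% in HTOXAR3, against 10.2%. Without drug 3 were higher in HTOXAR3 and 2 lower (29.4%, against 11.5%), at a list median of -0.01. *SOCS3*, an inhibitor induced by gp130 signalling, was not well above background in untreated HT29 and was at least 3.57-fold higher in untreated HTOXAR3 and at least 4.57-fold higher in HT29 after OXA. In HTOXAR3 it rose by 1.62 ± 0.10 with OXA. *IRAK2*, a kinase of interleukin 1 signalling, rose by 1.05 in HT29 and 0.49 in HTOXAR3 with OXA, and *STAT3* rose by 0.35 in HTOXAR3.

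Of the 17 targets, 6 rose and 2 fell with OXA in HT29 and 4 rose and 1 fell in HTOXAR3, at list medians of 0.19 and 0.08. That is 47.1% called in HT29, against 15.9% of all names, and 29.4% in HTOXAR3, against 10.2%. *ICAM1*, an adhesion molecule, rose by 1.99 ± 0.07 and 1.96 ± 0.07, *TNFAIP3*, an inhibitor of NF-κB, by 1.31 and 1.01, and *CSF2*, which encodes GM-CSF, by 1.33 and 1.50. *CEBPD* fell in both, by 0.97 and 0.50. Without drug 4 were higher in HTOXAR3 and 3 lower (41.2%, against 11.5% of all names). *PTGS2*, which encodes cyclooxygenase 2, was higher by 3.33 ± 0.16, *CSF2* by 2.43 ± 0.15, *TNFAIP2* by 0.95 and *NFKBIA* by 0.56, while *NFKBIZ* (-0.63), *BCL3* (-0.54) and *ICAM1* (-0.37) were lower. Adding Curcumin in HTOXAR3 raised 2 targets, *ZC3H12A* (0.60) and *TNFAIP2* (0.51), and lowered 1, *PTGS2* (-1.06).

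**Figure D4:**
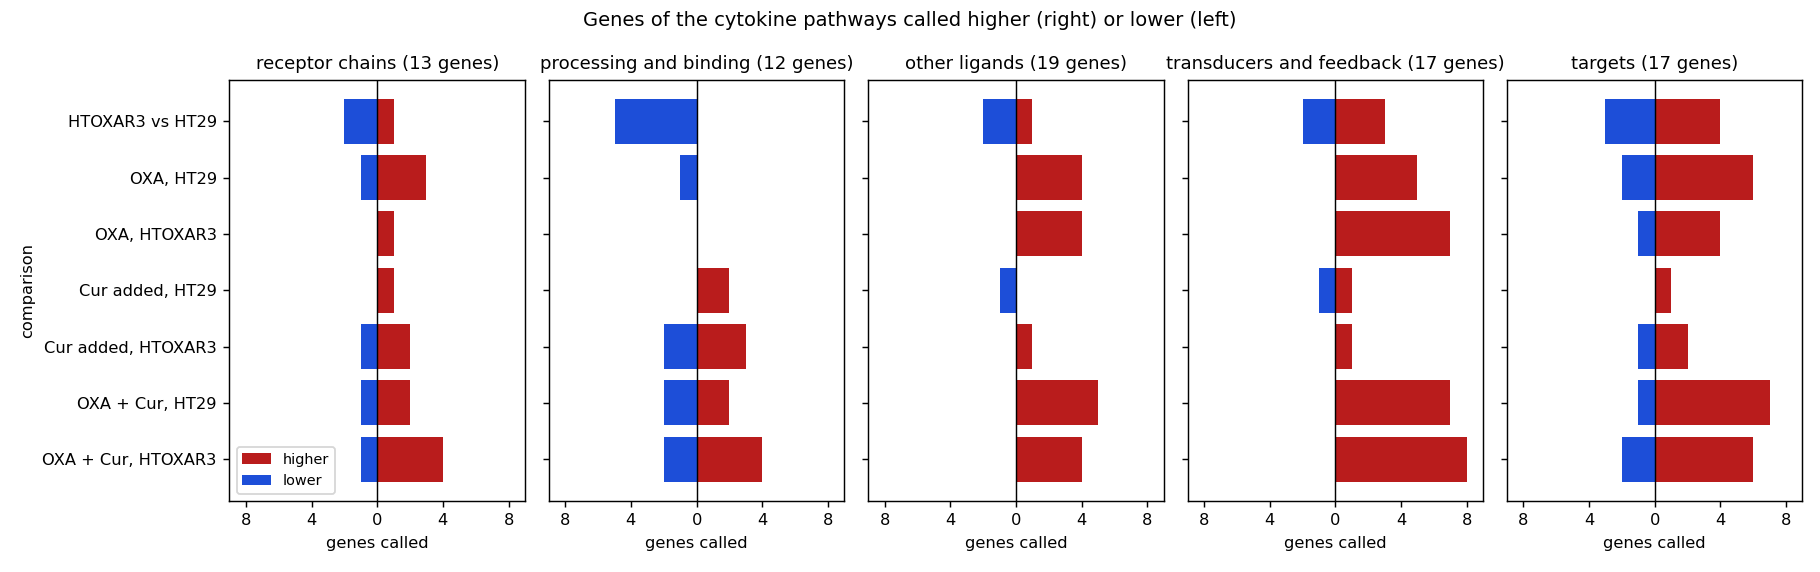
Number of genes called higher (right of 0) or lower (left of 0) in each of 5 lists around these cytokines (horizontal axis), by comparison (vertical axis; Cur, Curcumin). The 5 calls among processing enzymes and binding proteins between the untreated lines all lie to the left, and with OXA the transducers and feedback genes lie only to the right.

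Levels over the 18 arrays were compared with those of 17406 names well above background on every array, and the closest by Pearson's r are named as a description, since the arrays fall into groups. For *IL1B* they were *CNN3* (0.994), *PAGE1* (0.993) and *TOX2* (0.991). For *IL1RN* they were *FAM25A* (0.975), *NEU1* (0.974) and *TSC22D3* (0.974), and for *IL18* *IDI1* (0.962), *ZNF207* (0.956) and *CALR* (0.947). *IL23A* was most like *TRIM47* (0.980), *RBMS2* (0.980) and *GPRIN1* (0.978), and *LIF* most like *DCTN4* (0.972), *GNA13* (0.964) and *MC1R* (0.961). The highest values for *IL32* were lower, at 0.879 for a probe without a gene name, 0.877 for *CHD1* and 0.851 for *SKA2*.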

How the data were processed

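RNA of 18 cultures was hybridised to one-colour Agilent arrays (design 039494) and read with Feature Extraction 10.7.3.1. The deposited files hold the scanner's intensity of each spot, before normalization between arrays. Following the study's methods, which give no offset, mean intensity was corrected with normexp (offset 0) against the local background and quantile normalized. Control spots and outlier-flagged spots were left out, replicate spots averaged and, for the 8947 names with several probes, the brightest probe was used. The *IL1A*, *IL1B* and *IL18* probes have 10 spots each and the other member probes 1, so that members were not averaged alike. Saturated spots were kept (1 spot on 1 array). A probe was well above background on an array when at least 50% of its spots carried that flag. A floor for probes dim in a whole group was, per array, the higher of the probe's own reading and the lowest signal among probes well above background, and folds against it are given as at least that size.

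All 18 arrays entered 1 linear model with a term for each of the 6 groups, in limma 3.58.1 and R 4.3.3, two-sided, with Benjamini and Yekutieli's correction over all names. Sequence searches and figures used Python 3.11.15, pandas 2.3.3 and matplotlib 3.10.9. The 10 members and the lists of 78 pathway genes and of cell type markers were chosen with earlier results of these data known. All members were named with every probe, together with part of the 44 pathway genes called in at least 1 comparison, picked after their values were seen, and the 3 names most like each member well above background on all arrays. Marker genes and genes named as not detected fall outside this rule. The model was also run on simulated arrays, and no result of that run is used here. With 3 arrays per group, their number limits the precision. Same-numbered replicates deviated together, at correlations of 0.118 to 0.241, for OXA in HT29 and, at 0.108 to 0.194, for adding Curcumin in HTOXAR3, where they shared slides, and not for the other comparisons. Neither labels nor methods describe pairs. Promoter sequences are RefSeq's, on GRCh38.p14, and probe positions those of the array on GRCh37. The authors' table of processed log2 values names no genes in its lines and was not used here. Alternatives were other offsets and scalings, the processed signal, other probe summaries, filters and corrections, slide and replicate blocks, the compared arrays alone and each array left out. One more was chosen after seeing the data, in which only members well above background on at least 1 compared array were counted.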

Additional observations from a re-analysis of the deposited data

Results flagged for a closer look

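The response of *IL1RN* to OXA was smaller in HTOXAR3 than in HT29, by a log2 difference of -0.96 (SE 0.13, adjusted p = 0.0104 by limma), which was picked out because the test of the difference between the lines passed. The dimmer probe gave -0.26. The response of *IL23A* to OXA plus Curcumin was larger in HTOXAR3 than in HT29, by 0.99 (SE 0.15, adjusted p = 0.0198 by limma), and passed the same test. With 1 array left out the *IL23A* call held in 3 of 12 fits and that of *IL1RN* in 12 of 12. OXA doses were 10 µM in HT29 and 30 µM in HTOXAR3, so that dose and line cannot be told apart in either difference. No other member passed this test with the correction used.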

How the results depend on the processing

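No called difference of a member changed direction under the alternatives run, though another correction or the compared arrays alone could not change it. *IL32*, which was not called, changed direction with the choice of probe. Taking the mean of all probes gave *IL32* 0.67 for the combination in HT29 where the brighter probe had -0.14, and the other probe on its own gave 1.48 there and 0.65 between the untreated lines, where the brighter one had -0.57. The number of members called was within 1.5 times the reported number in all comparisons except the following. For the difference between the lines in response to OXA (1 called), it was 2 with a normexp offset of 50, 0 with the mean of all probes, 3 with Benjamini and Hochberg's correction and 0 with the compared arrays alone. For the difference in the effect of adding Curcumin (0 called), it was 1 with an offset of 50 and 1 with Benjamini and Hochberg's correction. With the compared arrays alone it was 2 between the untreated lines, 2 for OXA in HT29, 2 for OXA in HTOXAR3, 0 for adding Curcumin in HT29 and 2 for the combination in HTOXAR3, where fewer arrays estimate the spread.

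With 1 array left out the number called ran from 3 to 4 between the untreated lines, 3 to 5 for OXA in HT29, 3 to 4 for OXA in HTOXAR3, 2 to 3 for adding Curcumin in HT29 and 2 to 3 in HTOXAR3, and 5 to 6 for the combination in HT29 and 5 to 6 in HTOXAR3. For the differences between the lines it ran from 1 to 1 for OXA, 0 to 1 for adding Curcumin and 0 to 1 for the combination.

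With the replicate block 4 member results changed their side of the threshold. They were *IL32* between the untreated lines (-0.57, adjusted p = 0.0157) and with OXA in HTOXAR3 (0.51, adjusted p = 0.0397) and *LIF* between the untreated lines (0.34, adjusted p = 0.0496), which were then called, and *IL1A* with Curcumin added in HT29, which was not (adjusted p = 0.07). For OXA in HT29 and for adding Curcumin in HTOXAR3, where same-numbered arrays deviated together, the replicate block changed no call. The *TNF* call for OXA in HT29 was lost at an offset of 16 (0.38, adjusted p = 0.0579) and 50 (0.23, 0.142) and with scaling to the 75th percentile (0.53, 0.0524), and that for the combination in HT29 at an offset of 50 (0.24, 0.0786). With the processed signal the *TNF* calls in HTOXAR3 were lost for OXA (0.73, 0.051) and for the combination (0.68, 0.0563). The causes were not tested. Signal over background limits *IL1A*, *IL6* and untreated HT29 for *IL11* and *TNF*.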
